A study of Homo sapiens with 3 samples.

Results

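The peaks described here lie in the outermost 1 Mb of the human autosomes. A peak was a member when its summit fell within the first or the last 1 Mb of chromosome 1 to 22 in the hg19 build, which gives 44 chromosome ends. Of 35740 peaks in the 3 deposited lists, 726 were members: 323 in the ERG shRNA list, 6 in the ERG shRNA 2 list and 397 in the luciferase shRNA control list. The short-arm end of chromosome 1 is written 1p, the long-arm end of chromosome 5 is written 5q, and so on.

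The study mapped p53 on chromatin by ChIP-seq with the DO-1 antibody in VCaP cells, a cancer line derived from human prostate whose endogenous p53 carries the R248W mutation. It asked how the binding of this mutant p53 depends on ERG, an ETS-family transcription factor that VCaP cells overexpress from a TMPRSS2-ERG fusion. All 3 groups carried the mutant p53: cells with an shRNA against ERG, cells with a second ERG shRNA (ERG shRNA 2), and control cells with an shRNA against luciferase, a firefly enzyme that human cells lack. Each group was 1 library made by pooling at least 3 ChIPs, so the lists are compared with no test between groups. The labels of ERG shRNA 2 name neither an antibody nor a genotype beyond its title, although its file header names DO1. ERG levels were not analysed here. Its headers carry another date-like tag and another input name than those of the other libraries, so the hairpin and whatever that tag stands for cannot be told apart.

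Subtelomeres are the patchwork DNA just inside the telomere repeats. They are built of large duplicated blocks that have been copied between chromosome ends, so the same gene families recur on many chromosomes: OR4F olfactory receptors, which detect odorants, WASH genes, which encode part of a complex that nucleates actin on endosomes, and the non-coding DDX11L and FAM138 copies. The ends of 4q and 10q carry the D4Z4 repeat with DUX4, a transcription factor of the early embryo that is normally silent in somatic cells. Wild-type p53, a tumour suppressor that activates genes after DNA damage, has been reported to bind within human subtelomeres.

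The likeness of these ends can touch every count below, since a short read from a duplicated block can match several ends. The sources used here do not give how reads with more than 1 alignment were treated, and the part of such reads in the counts was not tested. The promoters of the FAM138 genes, long non-coding RNA genes, show how alike the copies are. RefSeq holds a promoter window for 6 of them in GRCh38.p14, a later build than the peaks, each from 250 bases before to 50 bases after the gene start. The windows of the 5 copies at chromosome ends, FAM138A at 1p, FAM138C at 9p, FAM138D at 12p, FAM138E at 15q and FAM138F at 19p, were identical in all 300 bases. FAM138B lies inside chromosome 2, at the relic of an ancestral fusion of 2 chromosome ends, and differed at 3 positions, A20C, C48T and T135C, with the FAM138A base first and positions counted from 1 at the 5′ end. Both are shown 5′ to 3′ with those 3 positions in capitals, FAM138A from chr1:36032-36331 on the minus strand and FAM138B from chr2:113577132-113577431 on the plus strand.
FAM138A: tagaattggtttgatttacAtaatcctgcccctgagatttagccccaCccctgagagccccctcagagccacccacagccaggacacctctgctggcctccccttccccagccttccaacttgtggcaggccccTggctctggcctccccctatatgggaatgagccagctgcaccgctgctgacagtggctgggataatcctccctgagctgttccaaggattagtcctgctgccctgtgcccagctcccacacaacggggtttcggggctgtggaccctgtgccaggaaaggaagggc
FAM138B: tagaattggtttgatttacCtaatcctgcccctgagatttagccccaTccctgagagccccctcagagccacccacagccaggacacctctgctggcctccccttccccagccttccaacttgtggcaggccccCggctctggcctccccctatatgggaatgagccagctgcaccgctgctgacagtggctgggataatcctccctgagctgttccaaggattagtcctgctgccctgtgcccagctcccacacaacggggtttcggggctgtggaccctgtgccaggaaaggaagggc

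The libraries differed in depth. After the filtering recorded in the file headers, 4853617 tags remained for ERG shRNA, 52175068 for ERG shRNA 2 and 9258451 for the control, each set against an input of 14360465 tags. The lists held 17321, 433 and 17986 peaks in that order, so the deepest library had the fewest peaks. Peaks, pileups and fold enrichments are the authors' own calls and values. Pileup and fold describe or rank peaks within 1 list and are not on 1 scale between lists.

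Chromosome ends held more peaks per Mb than the rest of the autosomes in the ERG shRNA and control lists. The ERG shRNA list had 7.34 peaks per Mb in the ends and 5.57 per Mb in the rest of the autosomes, a ratio of 1.32 (95% interval 1.18 to 1.47). The ERG shRNA 2 list had 0.136 per Mb in the ends and 0.0620 per Mb elsewhere, a ratio of 2.198 (0.796 to 4.88). The control list had 9.02 per Mb in the ends and 5.87 per Mb elsewhere, a ratio of 1.54 (1.39 to 1.70). Intervals here and below are exact and cover counting error only, and peaks of 1 library are not replicates. For ERG shRNA 2 the interval includes 1, so no difference was detectable at that count. The ends took 2.00% of autosomal peaks in ERG shRNA (1.79 to 2.23), 3.30% in ERG shRNA 2 (1.22 to 7.04) and 2.33% in the control (2.11 to 2.57). The size of the ratio rested on few ends: without 1p and 5q, it was 1.025 in ERG shRNA and 1.11 in the control. These 2 ends were picked after the counts were seen, and leaving out such rich ends must lower the ratio. The excess also depended on how wide the ends were taken, and it lay towards the telomere. With ends of 500 kb the ratio was 1.962 in ERG shRNA and 2.551 in the control. With ends of 2 Mb the direction turned, at 0.875 in ERG shRNA and 0.954 in the control. Peaks of 5-fold enrichment or more gave 1.025 in ERG shRNA and 1.477 in the control. Leaving dense 1 Mb windows out of the rest raised the ratio, to 1.432 in ERG shRNA and 1.715 in the control.

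Peaks were spread unevenly over the ends. In ERG shRNA, 37 of 44 ends held at least 1 peak (84.1%), against 90.2% of 1 Mb windows inside the chromosomes. In ERG shRNA 2, 3 ends did (6.82%), against 2.76% of windows, and in the control 33 did (75%), against 88.1%. The short-arm ends of the acrocentric chromosomes 13, 14, 15, 21 and 22 held none in any list, and hg19 has no assembled sequence there to which a read could map. Without them the shares of ends with a peak were 94.9% in ERG shRNA, 7.69% in ERG shRNA 2 and 84.6% in the control, so for ERG shRNA the side of the background depends on these 5 ends. The end of 5p also held none in any list. The median end held 4 peaks in ERG shRNA, 0 in ERG shRNA 2 and 4 in the control. The 5 richest ends held 132 of the ERG shRNA end peaks (40.9%) and 207 of the control end peaks (52.1%). The short-arm ends held 161 peaks and the long-arm ends 162 in ERG shRNA, 2 and 4 in ERG shRNA 2, and 215 and 182 in the control.

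**Figure D1:**
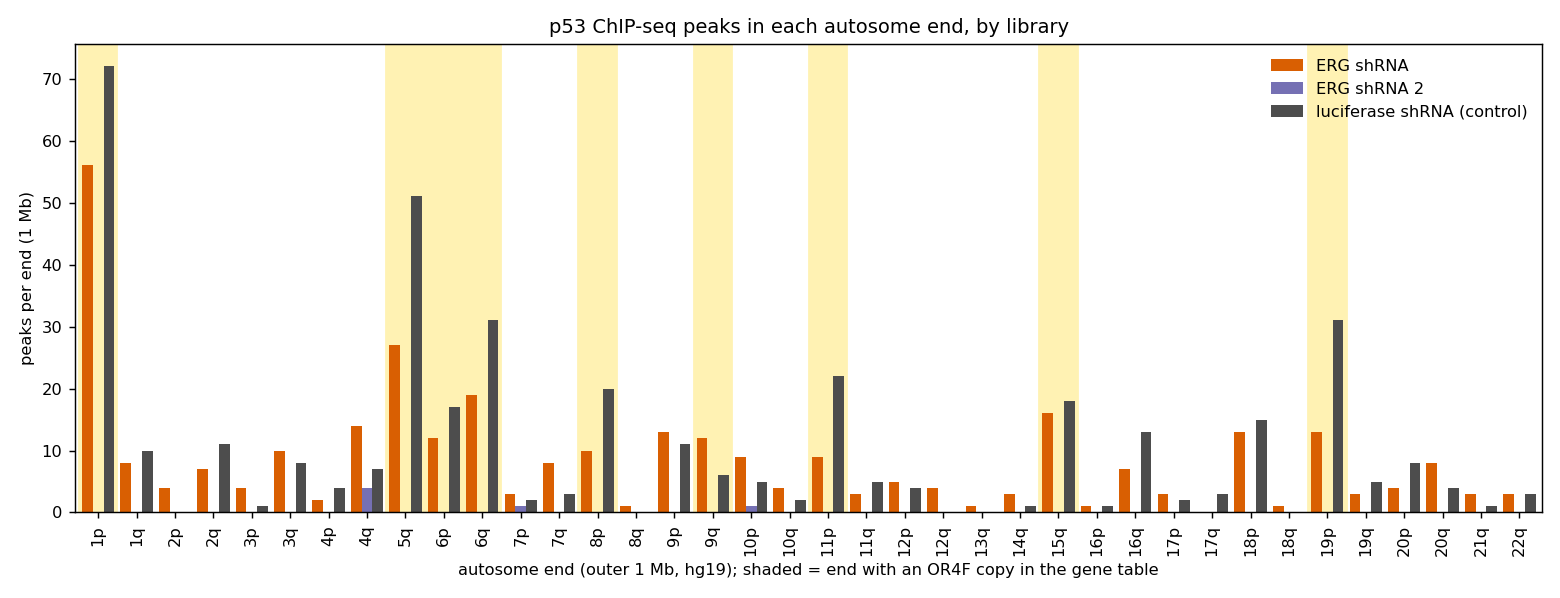
Number of peaks (y axis) in each autosome end of 1 Mb (x axis), with bars for ERG shRNA, ERG shRNA 2 and the luciferase shRNA control from left to right; 5p and the 5 acrocentric short-arm ends held no peak and are not drawn, and shading marks the ends with an OR4F copy. The tallest bar is 1p in ERG shRNA (56 peaks) and in the control (72 peaks), and 4q in ERG shRNA 2 (4 peaks).

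Most ends did not stand above their own chromosome. The density of an end exceeded that of the rest of its chromosome at 19 of 44 ends in ERG shRNA (43.2%), against 40.2% of 1 Mb windows inside the chromosomes. In the control it did so at 16 ends (36.4%), against 37.9% of windows. ERG shRNA 2 had at most 0.3325 peaks per Mb in the rest of any chromosome, so any end or window with a peak was above. Its 3 ends (6.82%), against 2.76% of windows, therefore repeat the shares with at least 1 peak given above. Over all 44 ends these shares are near their backgrounds in ERG shRNA and the control. The 5 acrocentric short-arm ends held no peak and could not be above. Of the other 39 ends, 19 were above in ERG shRNA and 16 in the control, which are higher shares. The excess lay more in how many peaks a few ends held than in how many ends were above. In 14 of 44 ends both the ERG shRNA and the control count were above the chromosome. The share of 1 Mb windows above in both lists was not computed, so this count has no background to be read against.

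The end of 1p held the most peaks of any end in both lists. It had 56 peaks in ERG shRNA (42.3 to 72.7), 0 in ERG shRNA 2 and 72 in the control (56.3 to 90.7). The rest of chromosome 1 had 5.36 peaks per Mb in ERG shRNA and 5.21 in the control, so the end was 10.4 and 13.8 times as dense. Of 247 windows of 1 Mb inside chromosome 1, 1 reached the count of the end in each of these lists. In the table of RefSeq genes, the end of 1p carries the olfactory receptor copies OR4F5, OR4F29 and OR4F16 together with WASH and DDX11L copies.

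The end of 5q came second. It had 27 peaks in ERG shRNA (17.8 to 39.3), 0 in ERG shRNA 2 and 51 in the control (38.0 to 67.1), or 3.73 and 6.26 times the density of the rest of chromosome 5 in ERG shRNA and the control. Its outermost protein-coding genes in the gene table are the olfactory receptor OR4F3, then TRIM52, a TRIM-family ubiquitin ligase, and RACK1, a scaffold protein of the small ribosomal subunit. No peak is assigned to these genes, since the table is on a later build than the peaks. Of 178 windows inside chromosome 5, 2 reached the count of this end in each of the ERG shRNA and control lists.

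The end of 6q had 19 peaks in ERG shRNA, 0 in ERG shRNA 2 and 31 in the control, 3.55 and 5.04 times the density of chromosome 6 outside its ends in the first and last of these. None of 169 windows inside chromosome 6 reached that count in either list. Its outermost protein-coding genes are PDCD2, TBP, which encodes the TATA-binding protein, and PSMB1, a proteasome subunit. The end of 19p had 13 peaks in ERG shRNA (6.92 to 22.2), 0 in ERG shRNA 2 and 31 in the control (21.1 to 44), 3.33 and 8.99 times the density of chromosome 19. The ERG shRNA and control intervals of 19p touch only near their edges, as do those of 5q, whereas those of 1p overlap widely. These intervals cover neither the difference in depth nor that between replicates, so they do not compare the groups.

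The end of 11p had 9 peaks in ERG shRNA, 0 in ERG shRNA 2 and 22 in the control, or 1.598 and 3.27 times the density of chromosome 11 in ERG shRNA and the control. The end of 15q, where OR4F15 and OR4F6 are the outermost genes that the table lists as protein-coding, had 16 peaks in ERG shRNA, 0 in ERG shRNA 2 and 18 in the control, 2.72 and 3.80 times its chromosome. Both ends were thus above their chromosome in both lists. The end of 4q was different: it had 14 peaks in ERG shRNA, 4 in ERG shRNA 2 and 7 in the control, 1.90 times the density of chromosome 4 in ERG shRNA and 0.901 times in the control. Its outermost protein-coding genes are DUX4, FRG2 and FRG1. DUX4 lies within the D4Z4 repeat tied to facioscapulohumeral muscular dystrophy, and FRG2 and FRG1 neighbour that repeat.

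Across the 44 ends the ERG shRNA and control counts ran closely together, with Pearson's r of 0.929 and Spearman's rho of 0.858. These describe chromosome ends that share the genome build, the duplicated blocks and an input of the same total, and they are no test. The ERG shRNA count was the higher at 19 ends, equal at 8 and the lower at 17, although the ERG shRNA total was lower. The equal ends include 5p and the 5 acrocentric short-arm ends, with 0 peaks in both lists. Those empty ends enter both coefficients, as does 1p, the highest in both lists with 56 and 72 peaks. The ends where the control led by most were 5q, 19p, 1p, 11p and 6q. Peaks of ERG shRNA but none of the control lay at 2p, 8q, 12q, 13q and 18q, with 4, 1, 4, 1 and 1 peaks. The end of 17q alone held control peaks and no ERG shRNA peak. Windows without a peak of a list also occur inside the chromosomes, where 90.2% of 1 Mb windows held an ERG shRNA peak and 88.1% a control peak. The share of windows with a peak of only 1 of these lists was not computed.

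Many of the rich ends carry a gene family that the choice of peaks did not use, although 4q, 9p and 18p were as rich as some of them in ERG shRNA and do not. In RefSeq, 9 ends carry at least 1 OR4F copy by position in GRCh38.p14, a later build than the peaks: 1p, 5q, 6p, 6q, 8p, 9q, 11p, 15q and 19p. This family was picked after the counts were seen, so its values are a description. These 9 ends held 174 of the 323 end peaks in ERG shRNA (53.9%, 48.3 to 59.4), 0 of 6 in ERG shRNA 2 and 268 of 397 in the control (67.5%, 62.7 to 72.1). Each was above its own chromosome in ERG shRNA, and 8 of 9 were in the control. The exception was 9q, with 12 peaks in ERG shRNA, 0 in ERG shRNA 2 and 6 in the control, where the control density was 0.540 times that of chromosome 9.

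The other 35 ends, taken as a whole 1 Mb each, were below the density of the rest of the autosomes. They are what remains once rich ends, picked after the counts were seen, are left out, which must lower their density. The OR4F ends held 19.3 peaks each in ERG shRNA (16.6 to 22.4), against 4.26 (3.60 to 5.00) at the other 35 ends. In the control they held 29.8 each (26.3 to 33.6), against 3.69 (3.08 to 4.38) at the other ends. Set against the rest of the autosomes, the OR4F ends were 3.47 times as dense in ERG shRNA (2.97 to 4.03) and 5.08 times in the control (4.48 to 5.73). The other ends were 0.764 times as dense in ERG shRNA (0.646 to 0.897) and 0.628 times in the control (0.524 to 0.747). Leaving the 5 acrocentric short-arm ends out as well gave 0.891 (0.753 to 1.05) and 0.733 (0.612 to 0.872). The first interval includes 1, so for ERG shRNA no difference was then detectable. In their outer 200 kb, however, the other 35 ends were denser than the rest of the autosomes, with 8.86 peaks per Mb in ERG shRNA (6.79 to 11.4), against 5.57, and 9.29 in the control (7.17 to 11.8), against 5.87. The outer 200 kb of the OR4F ends had 55.6 peaks per Mb in ERG shRNA (45.2 to 67.6) and 104 in the control (90.05 to 120.5).

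**Figure D2:**
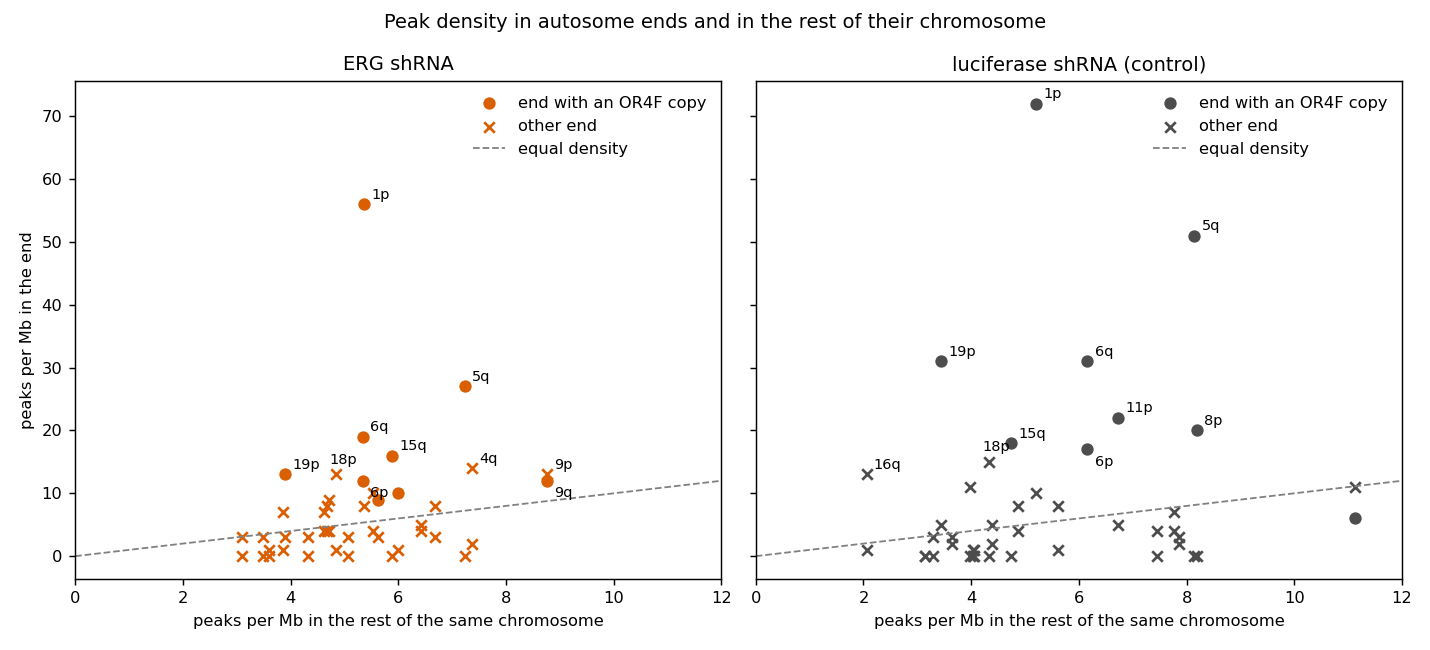
Peaks per Mb in each autosome end (y axis) against peaks per Mb in the rest of the same chromosome (x axis), for ERG shRNA on the left and the luciferase shRNA control on the right. Filled circles are the 9 ends with an OR4F copy, crosses the other 35, and the dashed line marks equal density; 1p stands highest in both panels and 9q falls below the line in the control.

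Other duplicated families overlapped with these ends. The 6 ends with a WASH, DDX11L or FAM138 copy, 1p, 9p, 12p, 15q, 16p and 19p, held 104 end peaks in ERG shRNA (32.2%), 0 in ERG shRNA 2 and 137 in the control (34.5%). Their counts per end ran between 1 and 56 in ERG shRNA and between 1 and 72 in the control, and most of the total came from 1p. Against the rest of the autosomes these 6 ends were 3.11 times as dense in ERG shRNA (2.54 to 3.77) and 3.89 times in the control (3.27 to 4.61), and 1p, 15q and 19p are among the OR4F ends too. The end of 9p, whose FAM138C promoter is the sequence printed for FAM138A, had 13 peaks in ERG shRNA, 0 in ERG shRNA 2 and 11 in the control, 1.48 and 0.989 times the density of chromosome 9. The 3 ends with DUX4 or FRG2 copies, 3q, 4q and 10q, held 28 peaks in ERG shRNA, 4 in ERG shRNA 2 and 17 in the control, or 1.67 times the density of the rest of the autosomes in ERG shRNA (1.11 to 2.42) and 0.966 times in the control (0.563 to 1.55).

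Some ends with no OR4F copy were also dense. The end of 18p had 13 peaks in ERG shRNA, 0 in ERG shRNA 2 and 15 in the control, 2.68 and 3.46 times the density of chromosome 18. The end of 16q had 7 peaks in ERG shRNA, 0 in ERG shRNA 2 and 13 in the control, 1.81 and 6.31 times that of chromosome 16. These were named after their counts were seen.

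Within the ends, peaks gathered towards the telomere. The outer 500 kb held 240 of 323 end peaks in ERG shRNA (74.3%, 69.2 to 79.0), all 6 in ERG shRNA 2 and 328 of 397 in the control (82.6%, 78.5 to 86.2). The richest 100 kb bin was the second from the end, with 90 peaks in ERG shRNA and 158 in the control. Bins were not corrected for unassembled hg19 sequence, and its part in the order of the bins was not tested. In the second bin the OR4F ends alone gave 61 and 128. The tenth bin held 13 peaks in ERG shRNA and 12 in the control. The median distance of a member from its chromosome end was 194 kb in ERG shRNA, 294 kb in ERG shRNA 2 and 150 kb in the control.

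**Figure D3:**
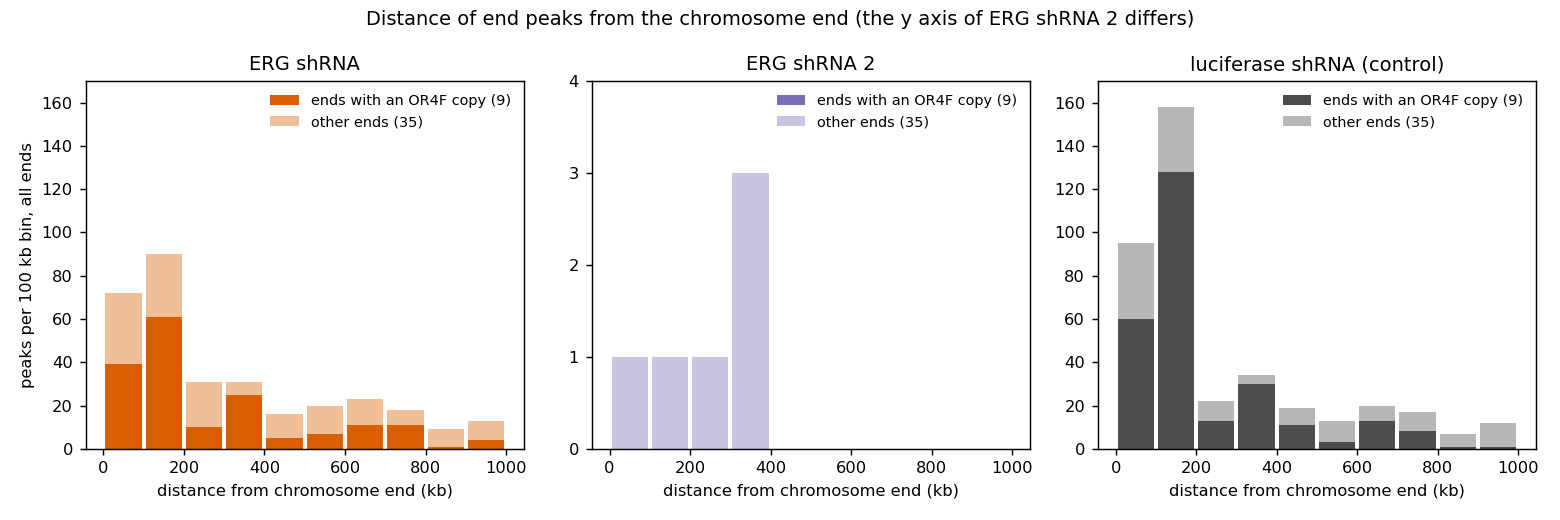
Number of end peaks by distance of the summit from the chromosome end, in bins of 100 kb, with a panel each for ERG shRNA, ERG shRNA 2 (on its own y axis) and the luciferase shRNA control; dark bars are the 9 ends with an OR4F copy and pale bars the other 35. The second bin is the highest in ERG shRNA (90 peaks) and in the control (158 peaks).

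The members were also crowded. The median gap between neighbouring end peaks was 11.9 kb in the ends and 78.5 kb in the rest of the autosomes for ERG shRNA, and 4.55 kb and 62.8 kb for the control. Gaps under 10 kb made up 47.6% of gaps in the ends and 21.3% in the rest for ERG shRNA, and 61.8% and 24.1% for the control. At the 1 Mb limit the density was level: ERG shRNA had 13 peaks in the last 100 kb inside the limit and 11 in the first 100 kb outside it, and the control 12 and 12. Their median pileups were 4 inside and 5 outside in ERG shRNA, and 7 inside and 5 outside in the control. ERG shRNA 2 had none on either side.

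In pileup and width, end peaks lay close to the other autosomal peaks of the same list. The median pileup, the number of fragments stacked at the summit (scaled to the smaller of library and input), was 4 in the ends (quartiles 4 and 5) and 5 in the rest (4 and 5) for ERG shRNA. For the control it was 6 in the ends and 6 in the rest, with quartiles of 5 and 7 in both. For ERG shRNA 2, with 6 end peaks, it was 9.91 in the ends and 9.36 in the rest. The median width in the ends and in the rest was 115 and 115 bp for ERG shRNA peaks, 248 and 188 bp for those of ERG shRNA 2, and 169 and 161 bp for control peaks. ERG shRNA peaks were mostly of the least width that the list allows, 55.7% in the ends and 55.3% in the rest.

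The single strongest peak of each list was elsewhere, where far more peaks lay, so this alone does not set the ends apart. The highest pileup was 20 in the ends and 230 in the rest for ERG shRNA, and 38 in the ends and 110 in the rest for the control. The highest fold enrichment was 12.2 in the ends and 191 in the rest for ERG shRNA, and 11.9 and 28.5 for the control. A fold of at least 8 was reached by 0.929% of ERG shRNA end peaks (0.192 to 2.69), against 2.15% of the rest. In the control it was 1.26% (0.410 to 2.91), against 1.83%. Both intervals include the share of the rest, so no difference was detectable. Median fold in the ends and the rest was close, 4.14 and 4.18 in ERG shRNA, 4.11 and 3.94 in ERG shRNA 2, and 4.62 and 4.37 in the control. A q-value of at most 0.05 was reached by 220 ERG shRNA end peaks (68.1%, 62.7 to 73.2), against 72.6% of its whole list. The same held for 1 of 6 in ERG shRNA 2, against 8.31% of its list, and for 324 in the control (81.6%, 77.4 to 85.3), against 79.8%. Most of the members in the first and last lists therefore passed at a rate near that of their list.

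The local background, which the authors' caller derives from the input, differed little at the ends in ERG shRNA. Its median there was 0.272 fragments in both the ends and the rest, and 33.1% of end peaks (28.0 to 38.6) lay at the lowest background of the list against 32.8% of the rest. In the control the shares were 39.8% of end peaks (34.9 to 44.8) and 31.5% of the rest (30.8 to 32.2), so more of its end peaks lay where the input gave no more than the floor. The part of this in the control's end count was not tested.

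Few end peaks were shared between libraries. Of 323 ERG shRNA end peaks, 51 overlapped a control peak by at least 1 bp (15.8%, 11.99 to 20.2), against 14% of the whole ERG shRNA list. Of 397 control end peaks, 51 overlapped an ERG shRNA peak (12.8%, 9.72 to 16.5), against 13.5% of the whole control list. Both shares are near the background of their list. The 51 pairs lay on 21 ends, and their summits were a median of 44 bp apart. The end of 1p gave 10 of them, and 5q, 6q, 18p and 19p gave 4 each. The end of 9p, with 13 ERG shRNA and 11 control peaks, gave none.

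In the OR4F ends 32 of 174 ERG shRNA peaks were overlapped (18.4%), against 19 of 149 at the other ends (12.8%). For control peaks the order was the other way, with 32 of 268 (11.9%) and 19 of 129 (14.7%). Close neighbours were commoner than overlaps: 140 ERG shRNA end peaks had a control peak within 1000 bp (43.3%, 37.9 to 48.9), against 23.8% of the whole list. The same was true of 155 control end peaks (39.0%, 34.2 to 44), against 22.9%. The closer spacing of peaks at the ends, given above, moves with these shares and its part in them was not tested.

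The overlapped end peaks had the higher median fold. It was 4.48 in ERG shRNA, against 4.14 for the end peaks with no overlap, and 4.86 against 4.45 in the control. Of the ERG shRNA end peaks with a fold of at least 6, 7 of 8 were overlapped (87.5%, 47.3 to 99.7). The share of such peaks in the whole list was 58.5%. In the control 15 of 26 were (57.7%, 36.9 to 76.6), against 54.1%. At a fold of at least 5 the order was the other way. There 15 of 43 ERG shRNA end peaks were overlapped (34.9%), against 38.7% of such peaks in the rest of the autosomes. In the control 20 of 97 were (20.6%), against 29.1%. Each of these shares had an interval that included its background, so no difference was detectable.

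**Figure D4:**
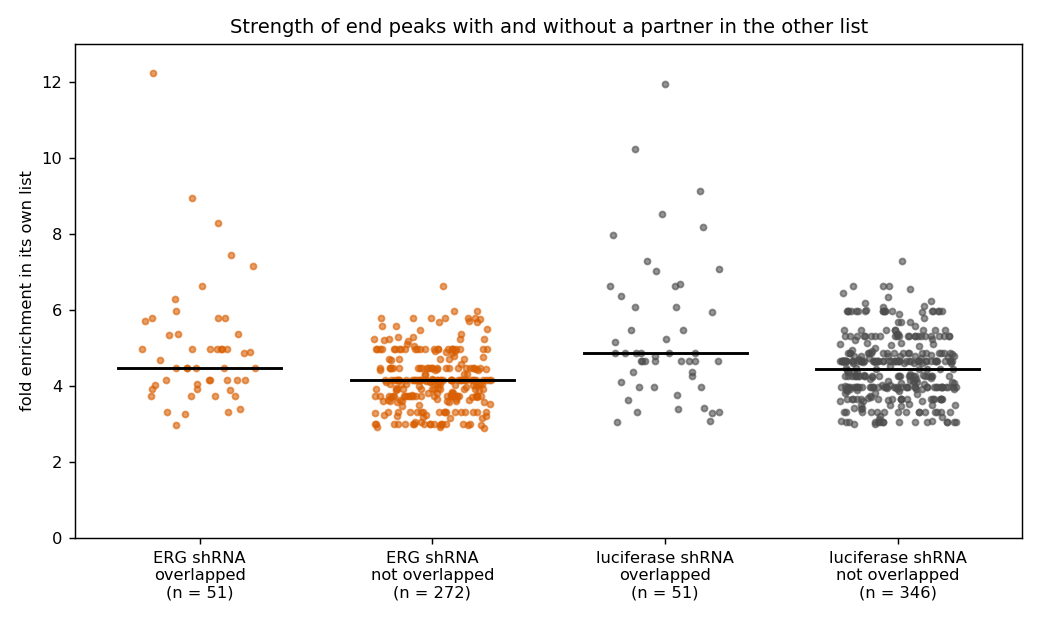
Fold enrichment of each end peak in its own list, for ERG shRNA (left pair) and the luciferase shRNA control (right pair), split by whether a peak of the other of these 2 lists overlaps it; points are peaks, spread sideways at random, and lines are medians. The overlapped groups hold 51 peaks each, and every point above a fold of 8 is overlapped.

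The 3 shared pairs with the highest ERG shRNA fold lay on several chromosomes and away from the crowded outer bins. At 8p an ERG shRNA peak at chr8:316770-316908 had a pileup of 16 and a fold of 12.2, and the control peak at chr8:316760-316935 had 23 and 8.18. At 10p the ERG shRNA peak at chr10:793698-793865 had 14 and 8.95, and the control peak at chr10:793662-793862 had 29 and 10.2. At 3p the ERG shRNA peak at chr3:739299-739583 had 9 and 8.29, and the control peak at chr3:739288-739490 had 17 and 11.9. All 3 pairs overlap along most of their length.

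The pair at 19p was among the 5 of highest fold in both lists, and those at 11p and 6p were so in 1 list each. At 19p the ERG shRNA peak at chr19:820713-820833 had a pileup of 8 and a fold of 7.46, and the control peak at chr19:820715-820872 had 14 and 9.12. At 11p the ERG shRNA peak at chr11:304694-304848 had 11 and 7.16, and the control peak at chr11:304658-304825 had 9 and 4.37. At 6p the ERG shRNA peak at chr6:311397-311536 had 8 and 5.37, and the control peak at chr6:311398-311562 had 13 and 8.51. The 11p pair was thus well down the control's order, and the 6p pair down that of ERG shRNA.

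The strongest peaks without a partner were weaker. In ERG shRNA they were chr18:236339-236464 at 18p (pileup 7, fold 6.63), chr16:90253633-90253772 at 16q (7, 5.98), chr20:62214858-62214981 at 20q (7, 5.96), and chr1:357642-357838 and chr1:368574-368747 at 1p (6 and 5.80 each). The 2 at 1p are the first by position of 6 peaks tied at that fold. In the control they were chr8:144562-144788 at 8p (10, 7.30), chr9:29895-30084 at 9p (14, 6.55), and 3 peaks at 9 and 6.63 each: chr16:90261399-90261695 at 16q, chr5:180784948-180785145 at 5q and chr6:81283-81447 at 6p.

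A single place held a peak of all 3 lists, at 7p about 24.1 kb from the chromosome end. It spanned chr7:23985-24478 in ERG shRNA with a pileup of 17, chr7:24088-24471 in ERG shRNA 2 with a pileup of 30.3, and chr7:23980-24472 in the control with a pileup of 38. The folds were modest, 4.86, 2.09 and 5.24 in that order. The local background there was high in every list, 2.70 in ERG shRNA, 14 in ERG shRNA 2 and 6.45 in the control, against medians over end peaks of 0.272, 2.00 and 0.601. The ERG shRNA 2 summit lay 263 bp from that of the control. In all, 7p held 3 peaks in ERG shRNA, 1 in ERG shRNA 2 and 2 in the control, less than the density of chromosome 7 in ERG shRNA and the control.

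The other ERG shRNA 2 end peaks were at 4q and 10p. Those at 4q were chr4:190842323-190842718 (pileup 14.3, fold 5.10), chr4:190844336-190844531 (9.08, 4.31), chr4:190845711-190846010 (10.7, 3.91) and chr4:190873941-190874120 (9.08, 4.78). The first was the only ERG shRNA 2 end peak that reached a q-value of 0.05. The third was overlapped by an ERG shRNA peak at chr4:190845925-190846039 with a pileup of 4 and a fold of 3.76. No 4q peak of ERG shRNA 2 was overlapped by a control peak, and the 1 overlap of ERG shRNA with the control there lay at chr4:190924100-190924214 and chr4:190924082-190924411. The 10p peak was chr10:107840-107998, with a pileup of 8.26 and a fold of 3.09, and no overlap.

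Set against the whole list, 2 of 6 ERG shRNA 2 end peaks overlapped an ERG shRNA peak (33.3%, 4.33 to 77.7), against 12%, and 1 of 6 a control peak (16.7%, 0.421 to 64.1), against 11.8%. With 6 peaks neither share could be told from its background. In the other direction, 2 of 323 ERG shRNA end peaks met an ERG shRNA 2 peak (0.619%), against 0.306% of its list, and 1 of 397 control end peaks did (0.252%), against 0.284%.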

How the data were processed

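The 3 deposited peak lists were used, 1 per library. Per the submitters' processing notes, reads were processed with Bowtie2, Picard 2.14.0, bedtools and MACS2 on hg19. Peaks were called in each library separately against input with MACS 2.2.7.1, per the file headers, at a p cutoff of 0.001, with 1 tag kept per position and fragment lengths of 115, 154 and 148 bp for ERG shRNA, ERG shRNA 2 and the control. The deposited columns are pileup (fragment coverage, a signal), fold enrichment (a ratio over local background) and −log10 p- and q-values. Local background was computed as (pileup + 1) / fold - 1. A second sheet of each list was not used.

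Peaks were assigned to ends by summit with hg19 chromosome lengths in Python 3.11.15 (pandas 2.3.3, numpy 2.4.6, scipy 1.17.1, matplotlib 3.10.9). Intervals are 95%: exact Poisson for counts, Clopper-Pearson for shares, conditional binomial for ratios. The counting was tested on simulated data. Named were the 5 ends with the most peaks in the ERG shRNA and the control list, each end with an ERG shRNA 2 peak, and the 5 strongest end peaks with and without an overlap. Genes come from the RefSeq table of GRCh38.p14, used for names, for order and to place gene families at ends. A family copy was placed at an end by its GRCh38.p14 position. It had to lie within 1 Mb of the chromosome start or of the last gene end in the table. Short-arm gene order was not used, since the table mixes alternate scaffolds there. The short-arm family placements come from the same table and share that limit. Members and lists were chosen with earlier results of these data known.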

Additional observations from a re-analysis of the deposited data

Results flagged for a closer look

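The share of autosomal peaks that lay in the ends differed between the libraries in its point value. It was 2.00% in ERG shRNA and 2.33% in the control, a difference of -0.328 percentage points. It was 3.30% in ERG shRNA 2 and 2.33% in the control, a difference of 0.967 percentage points. By these point values the 2 ERG shRNA libraries stood on opposite sides of the control. The counting intervals were 1.79 to 2.23% in ERG shRNA, 1.22 to 7.04% in ERG shRNA 2 and 2.11 to 2.57% in the control. They overlap, so no side can be assigned. With 1 library per group these differences were not tested, and the ERG shRNA 2 share rests on 6 peaks.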

How the results depend on the processing

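Of 88 alternatives, 59 kept a ratio or share within its counting interval or a count within 1.5 times, 25 moved a value further and 4 turned round a density ratio whose interval excluded 1. With ends of 2 Mb the ratio was 0.875 in ERG shRNA and 0.954 in the control. Without the 9 OR4F ends, an alternative added after seeing the data, it was 0.764 and 0.628. The ratio rose to 1.962 in ERG shRNA and 2.551 in the control with ends of 500 kb, and to 1.486 and 1.735 without the acrocentric short-arm ends. It was 1.715 in the control when dense windows were left out of the rest. Also added after seeing the data, leaving out 1p and 5q gave 1.025 and 1.112, and leaving out 4q gave 0.750 in ERG shRNA 2, below 1, where the interval of the full ratio includes 1. A fold of at least 5 left 43 end peaks in ERG shRNA (ratio 1.025), 1 in ERG shRNA 2 and 97 in the control, and a q-value of at most 0.05 left 1 in ERG shRNA 2. The overlapped share was 9.60% of ERG shRNA and 7.81% of control end peaks with a reciprocal overlap of 50%, and 43.3% and 39.0% within 1000 bp. Every overlap of ERG shRNA 2 with either list, and of the control with ERG shRNA 2, was 0 with summits within 100 bp and with lists of equal length; for ERG shRNA 2 peaks it was also 0 at a q-value of at most 0.05. Beyond the alternatives' own construction, the cause was not tested. No paired analysis was possible because the groups compared consist of 1 library each. The 6 peaks of ERG shRNA 2 limit what can be said of it.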

Other observations

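The sex chromosomes were outside the rule. Their outermost 1 Mb held 2 ERG shRNA peaks at Xp, 9 at Xq, 2 at Yp and 4 at Yq. ERG shRNA 2 had 1 at Xp, 0 at Xq, 2 at Yp and 0 at Yq. The control had 2 at Xp, 9 at Xq, 1 at Yp and 3 at Yq.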
